A study of Mus musculus with 12 samples.

Results

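Prkcd, Synpo2, Ntng1, Tcf7l2, Lef1, Rgs16 and Slc17a6 are 7 genes used as markers of thalamic neurons, followed here through 12 bulk RNA-seq libraries of mouse tissue labelled hypothalamus. They were picked by symbol, each matched 1 Ensembl ID, and they make up 7 of the 78334 IDs in the count table. All 7 passed the filter on low counts, which left 25562 genes. The symbols were proposed with these levels already known, so the levels and differences of the 7 genes are a description and support no test.

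The thalamus relays sensory and motor signals to the cortex and lies directly above the hypothalamus, so a hypothalamic block can carry some of it along its upper edge. Its relay neurons are glutamatergic and load vesicles with the transporter encoded by Slc17a6. Their identity depends on the Wnt effector Tcf7l2, which together with its relative Lef1 binds DNA and recruits beta-catenin, while Prkcd marks relay nuclei. None of the 7 genes is exclusive to the thalamus: Slc17a6 is also the main vesicular glutamate transporter of hypothalamic and midbrain neurons, Tcf7l2 is also made by maturing oligodendrocytes, and Lef1 by brain endothelial cells.

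All animals were male C57BL/6 mice. The control group (n = 3) ate a standard diet and received vehicle. The diabetes group (n = 4) was injected with streptozotocin, a toxin of insulin-producing beta cells, at 70 mg/kg on postnatal day 2, then ate a diet with 60% of energy from fat for 8 weeks from 3 weeks of age, and received vehicle. The curcumin group (n = 3) and the aged garlic extract group (n = 2, called garlic here) had the same injection and diet and were gavaged daily for 28 days with 50 mg/kg curcumin or 200 mg/kg extract. The injection and the diet cannot be told apart in any comparison with control. The labels start treatment in week 7 of the diet and the design text after 11 weeks, so the timing is unresolved. The labels do not tie libraries to individual animals. The p-values therefore rest on the spread among the deposited libraries, part of which may be technical.

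Library totals ran from 12950017 to 30271706 counts. Curcumin replicate 2 stood apart from all other libraries: the summed level of 19 hypothalamic genes was 33.2 CPM (read counts scaled to TMM-adjusted library size) in it and 612 to 4954 CPM elsewhere. The hypothalamic transcription factors Nkx2-1, Sim1 and Otp and the peptide Avp, all but Avp named after their values were seen, were each at most 0.347 CPM there, so the labelled tissue was not borne out by its defining genes in that library. Diabetes replicate 4 carried 861 CPM of 7 pituitary genes, against at most 15.2 CPM elsewhere, and 1753 CPM of 5 blood genes, against at most 503 CPM. Control replicate 3 had 503 CPM of 5 astrocyte genes, against 1435 to 2682 CPM elsewhere, and garlic replicate 1 had 254 CPM of 6 striatal genes, against at most 155 CPM. Curcumin replicate 1 held 71.5 CPM of Slc6a3, the dopamine transporter of midbrain neurons, against at most 14.5 CPM. Control replicate 1 stood apart in the thalamic genes themselves, as given below. At the depth of the smallest library, 20133 to 22515 genes were detected in the diabetes libraries and 25766 to 33157 in control, a gap that moves with the comparison and whose part in it was not tested.

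The promoters of Prkcd, Synpo2 and Tcf7l2 are shown because the first pair peaked in a control library and Tcf7l2 in curcumin replicate 2. Each run is the 250 bases before a RefSeq start site on GRCm38.p6, written 5′ to 3′ on the gene's strand, with capitals marking CTTTG on either strand (CAAAG on the strand printed). CTTTG lies inside the reverse complement of the TCF/LEF core ATCAAAG, so every core match is also a CTTTG match. Prkcd lies at chr14:30626209-30626458 on the minus strand, Synpo2 at chr3:123236150-123236399 on the minus strand, and Tcf7l2 at chr19:55741560-55741809 on the plus strand.
Prkcd: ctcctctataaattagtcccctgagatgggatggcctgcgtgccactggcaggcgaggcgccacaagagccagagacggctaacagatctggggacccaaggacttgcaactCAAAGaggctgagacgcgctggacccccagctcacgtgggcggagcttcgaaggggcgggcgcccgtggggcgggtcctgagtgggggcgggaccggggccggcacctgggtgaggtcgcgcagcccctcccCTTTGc
Synpo2: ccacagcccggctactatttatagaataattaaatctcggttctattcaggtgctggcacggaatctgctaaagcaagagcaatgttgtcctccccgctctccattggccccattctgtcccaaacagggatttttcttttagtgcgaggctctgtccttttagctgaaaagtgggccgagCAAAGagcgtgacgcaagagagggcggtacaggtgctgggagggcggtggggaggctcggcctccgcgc
Tcf7l2: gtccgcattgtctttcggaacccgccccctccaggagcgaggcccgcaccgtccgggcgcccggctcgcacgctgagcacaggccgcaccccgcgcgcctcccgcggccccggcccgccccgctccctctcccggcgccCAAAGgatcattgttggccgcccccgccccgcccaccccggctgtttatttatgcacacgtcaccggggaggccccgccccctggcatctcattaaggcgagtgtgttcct

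RefSeq gave 13 promoters for the 7 genes. Lef1, Slc17a6, Prkcd and Tcf7l2 each had alternative start sites, and some Lef1 windows overlap, so the 13 are not independent. CTTTG occurred in 11 of these 13 windows of 300 bases, which run from 250 bases before the start to 50 after it, or 84.6%, and in 53.9% of all 32851 promoters. ATCAAAG occurred in 0 of the 13 and in 3.73% of all promoters. The 15 promoters found for 13 of the 16 other thalamic genes described below held CTTTG in 5, or 33.3%. Over the 250 upstream bases the printed Tcf7l2 promoter was 72.8% G and C with 30 CpG, Prkcd 67.6% with 18 and Synpo2 54.4% with 13, against medians of 52.4% and 6 over all promoters. The alternative start site gave 40.8% with 7 CpG for Tcf7l2 and 50.8% with 1 for Prkcd, so the printed values hold for those starts only. These matches describe letters only, and a short motif is frequent in any promoter.

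Levels per kilobase of exon allow the genes to be set beside each other. In control, Slc17a6 was highest at 41.4 ± 4.96 CPM per kb (SD, n = 3 here and for the next 6 values), followed by Rgs16 at 16.8 ± 4.61 CPM per kb. Ntng1 at 8.00 ± 2.79, Prkcd at 7.90 ± 7.50 and Tcf7l2 at 7.33 ± 2.67 CPM per kb did not differ beyond their spread. Synpo2 came next at 2.17 ± 1.41 CPM per kb and Lef1 last at 0.942 ± 0.410 CPM per kb. Exon lengths came from another annotation than the counts, so these levels per length are approximate.

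Prkcd encodes protein kinase C delta. Its level in control was 91.8, 19.4 and 20.2 CPM in replicates 1 to 3, in diabetes 6.57, 5.34, 8.87 and 14.3 CPM in replicates 1 to 4, in curcumin 12.8, 18.2 and 16.4 CPM, and in garlic 17.1 and 12.9 CPM. Control replicate 1 held 6.42 times the median of the other 11 libraries, and every diabetes library lay below every control library. The group means were 43.8 ± 41.6 CPM in control, 8.77 ± 3.97 in diabetes, 15.8 ± 2.75 in curcumin and 15.0 ± 3.01 in garlic (SD). Diabetes, curcumin and garlic overlapped, and the control mean rested largely on replicate 1.

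Synpo2 encodes synaptopodin 2, an actin-binding protein. It measured 49.5, 20.0 and 15.6 CPM in the control libraries, 8.79, 9.62, 7.48 and 14.2 CPM in diabetes, 18.4, 10.5 and 10.04 CPM in curcumin, and 12.9 and 7.09 CPM in garlic. Control replicate 1 was again the highest, at 4.71 times the median of the other libraries. Diabetes and control did not overlap, but diabetes replicate 4 came within 1 SD of control replicate 3, and curcumin and garlic overlapped diabetes.

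Ntng1 encodes netrin-G1, a membrane-anchored protein of thalamocortical axons. Its levels were 91.3, 46.4 and 60.1 CPM in control, 33.7, 40.2, 31.7 and 35.3 CPM in diabetes, 42.2, 51.7 and 50.9 CPM in curcumin, and 49.3 and 28.8 CPM in garlic. The 4 diabetes libraries lay close together, below all control and all curcumin libraries, and the garlic libraries fell on either side of them.

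Rgs16 encodes a regulator that speeds the shut-off of G protein signals. It stood at 51.7, 32.1 and 34.2 CPM in control, 12.4, 19.9, 18.2 and 30.6 CPM in diabetes, 10.2, 24.5 and 22.1 CPM in curcumin, and 10.8 and 37.0 CPM in garlic. Diabetes replicate 4 nearly reached control replicate 2, and the garlic pair spanned the whole diabetes range. The order of the libraries was thus not that of Ntng1, although control replicate 1 led both.

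Slc17a6 encodes the vesicular glutamate transporter VGLUT2. The control libraries held 254.1, 205.0 and 211 CPM, diabetes 175, 118, 143.5 and 174 CPM, curcumin 199, 353 and 202 CPM, and garlic 211 and 162 CPM. Curcumin replicate 2 was highest, at 1.77 times the median of the others, and the diabetes libraries lay below all control and all curcumin libraries. Of the markers it varied least between groups in fold, from 153 ± 27.2 CPM in diabetes to 251 ± 87.7 CPM in curcumin (SD).

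Tcf7l2 encodes the Wnt effector TCF7L2. It measured 90.2, 44.8 and 57.9 CPM in control, 17.4, 15.8, 31.7 and 35.4 CPM in diabetes, 17.1, 324.6 and 22.1 CPM in curcumin, and 30.2 and 37.0 CPM in garlic. Curcumin replicate 2 held 10.2 times the median of the other 11 libraries, while curcumin replicates 1 and 3 lay within the diabetes range. Control was above diabetes in every library.

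Lef1 encodes the relative of TCF7L2. Its levels were 9.40, 4.25 and 11.2 CPM in control, 4.38, 8.49, 5.57 and 6.30 CPM in diabetes, 5.25, 26.2 and 2.08 CPM in curcumin, and 6.95 and 8.77 CPM in garlic. Curcumin replicate 2 was 4.16 times the median of the others, curcumin replicate 3 was the lowest of all libraries, and the control, diabetes and garlic ranges overlapped.

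**Figure D1:**
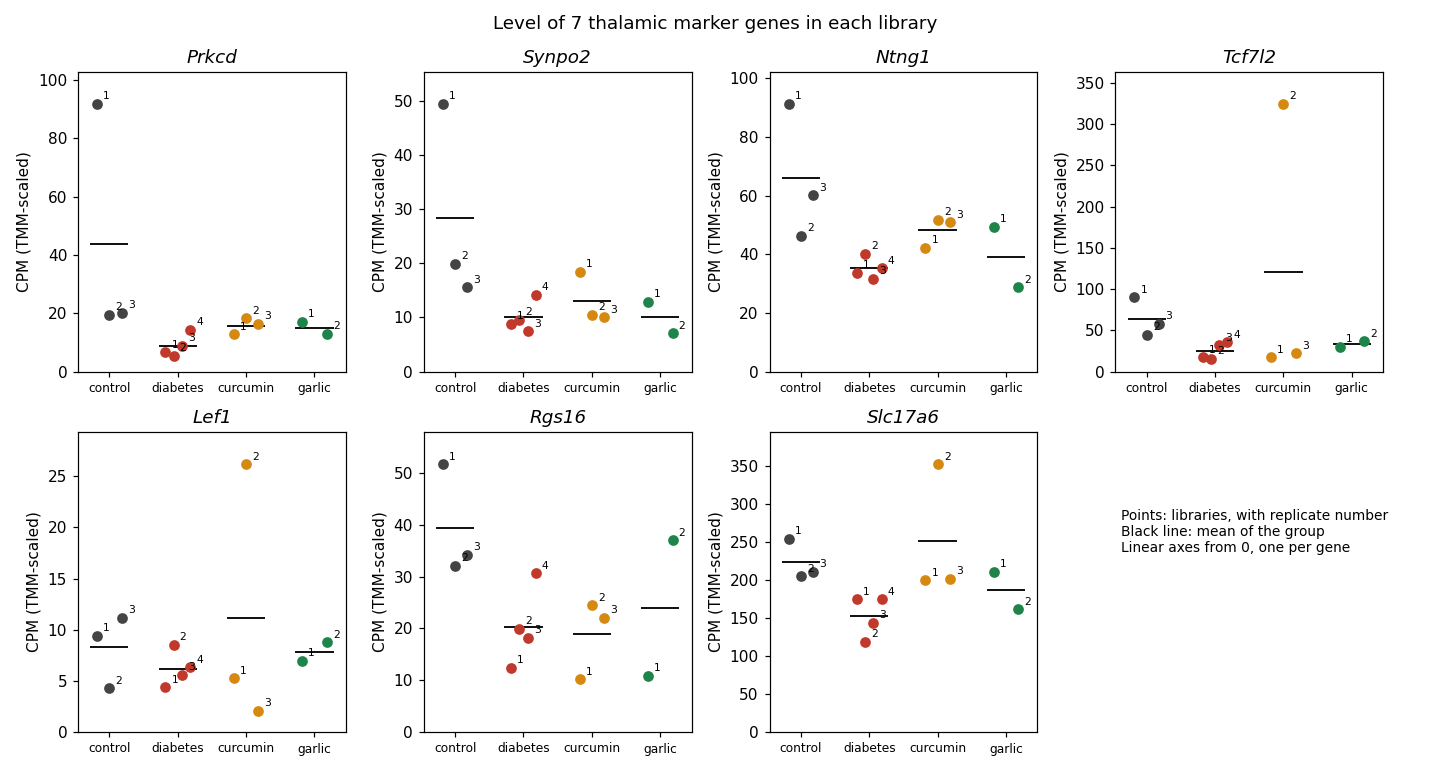
Level of each marker gene in the 12 libraries, in CPM on linear axes that start at 0 and differ between genes; points are libraries with their replicate number and black lines are group means. Control replicate 1 is highest for Prkcd (91.8 CPM), Synpo2, Ntng1 and Rgs16, and curcumin replicate 2 for Tcf7l2 (324.6 CPM), Lef1 and Slc17a6.

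The 7 markers therefore did not share a single highest library. Prkcd, Synpo2, Ntng1 and Rgs16 were highest in control replicate 1, where 1.55% of all tested genes had their highest level, and Tcf7l2, Lef1 and Slc17a6 in curcumin replicate 2, where 8.85% did. In curcumin replicate 2 Prkcd (18.2 CPM) had rank 4 and Synpo2 (10.5 CPM) rank 7 of the 12 libraries. Control replicate 1 had rank 2 for Tcf7l2 and Slc17a6 and rank 3 for Lef1, so it was among the highest libraries for every marker. A further 16 genes with high expression in thalamic relay neurons, listed with earlier results known, split in the same manner: 8 were highest in control replicate 1, 5 in curcumin replicate 2 and 3 elsewhere.

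Among these 16, the homeobox gene Shox2 read 20.8, 7.18 and 9.15 CPM in control, 0, 0, 3.31 and 2.12 CPM in diabetes, 0, 94.8 and 0 CPM in curcumin, and 3.50 and 3.05 CPM in garlic. The LIM homeobox gene Lhx9 read 84.6 CPM in curcumin replicate 2 and at most 10.2 CPM elsewhere. Gbx2, a transcription factor of developing thalamus, was at 0.0496 CPM in curcumin replicate 2 and at 6.20, 1.60 and 8.10 CPM in control. It was also at 0 CPM in curcumin replicate 1 and diabetes replicates 1 and 2 and at 0.087 CPM in diabetes replicate 3, so its near absence was not particular to curcumin replicate 2. Shox2, Lhx9 and Tcf7l2 were thus high together in curcumin replicate 2.

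Markers of other regions moved with these libraries. In curcumin replicate 2 the habenular and midbrain factor Pou4f1 was at 18.9 CPM, the midbrain and hindbrain factor En1 at 26.7 CPM and Gata3 at 21.3 CPM, while no other library passed 1.43 CPM for any of them; the 3 genes were named after their values were seen. Other genes of the same lists went the other way: Tac2 was at 1.89 CPM, against 23.9 to 58.6 CPM elsewhere, Th, the rate-limiting enzyme of dopamine synthesis, at 6.20 CPM and Slc6a3 at 0.248 CPM, each the lowest of the 12 libraries. The summed levels of the 7 habenular genes (50.3 CPM) and the 7 midbrain genes (72.4 CPM) lay within the range of the other libraries. Tac2 alone made up most of the habenular sum in every other library but little of it here, so that sum does not compare like with like. Of the 7 habenular genes, 3 were highest in curcumin replicate 2, Pou4f1 and Chrna3 (19.5 CPM) among them, and 4 elsewhere. The summed level of 8 oligodendrocyte genes was 10700 CPM there and 3810 to 7212 CPM elsewhere, that of 9 endothelial genes 472 CPM against 102 to 275 CPM, and that of 6 genes of all neurons 5017 CPM against 3171 to 4204 CPM. The neuronal genes were not raised as a set. Of the 6, 3 were highest there, Snap25 (1981 CPM) and Eno2 (1398 CPM) among them. Syt1 (388 CPM) and Map2 (536 CPM), both outside the naming rule, had rank 11 of the 12 libraries. The 3 sums stand beside Tcf7l2, Lef1 and Slc17a6 in turn, and their part in the 3 levels was not tested. In control replicate 1 the 7 genes of cortex and hippocampus summed to 104 CPM against 49.1 to 94.9 CPM elsewhere, and Slc17a7, the vesicular glutamate transporter of cortex and thalamus, was at 28.2 CPM against 5.12 and 6.02 CPM in the other control libraries and at most 20.5 CPM elsewhere; it too was named after its values were seen.

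**Figure D2:**
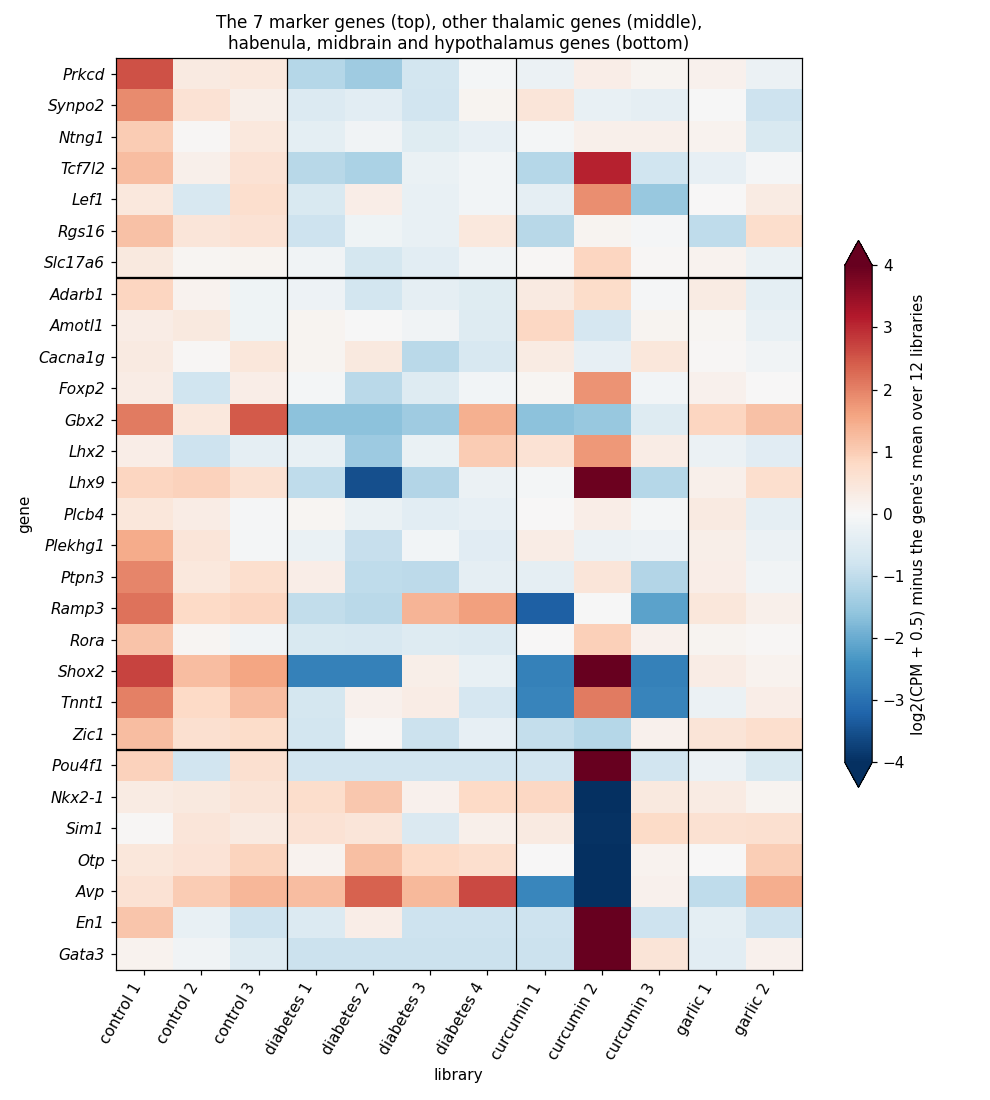
Rows are the 7 marker genes, 15 of the other thalamic genes, and genes of habenula, midbrain and hypothalamus chosen in part after their values were seen; columns are libraries, and colour is log2(CPM + 0.5) minus the gene's mean over the 12 libraries, saturating at 4 in either direction. Red cells gather in control replicate 1 for most thalamic genes and in curcumin replicate 2 for Tcf7l2, Shox2, Lhx9, Pou4f1, En1 and Gata3, where Nkx2-1, Sim1, Otp and Avp are dark blue.

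The comparison of diabetes with control addresses what the injection and diet together changed. All 7 markers had a lower fitted level in diabetes, and 6 of the 7 were lower in every diabetes library than in any control library, as were 8.93% of all genes tested. No marker passed an adjusted p of 0.05 in edgeR's quasi-likelihood test with Benjamini-Hochberg adjustment over all genes, the test behind every adjusted p below unless another is named. In this comparison 0.0156% of all genes passed, all of them higher. At an unadjusted p under 0.05, 5 of the 7 were lower, against 7.48% of all genes. DESeq2 called 3 of the 7 lower, with 0.52% of the genes it gave an adjusted p, and limma-voom with library weights 1 of the 7, with 1.77% of all genes. The median log2 change of the 7 was −0.96, beside −0.07 over all genes. Because the markers were proposed from this contrast, nothing is read from these counts.

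The largest fitted difference was that of Prkcd, at −2.32 ± 0.47 on the log2 scale (SE, adjusted p = 0.0927). Without control replicate 1 it was −1.18 ± 0.41 (adjusted p = 0.654), so that library alone moved the value by over 1 log2 unit. Without curcumin replicate 2, which is in neither group but bears on the shared spread, the scaling and the filter, Prkcd was −2.40 with an adjusted p of 0.0371. In that fit 0.0434% of all genes were called lower. Prkcd was also past the threshold without curcumin replicate 1 (adjusted p = 0.0461, with 0.012% of all genes lower) and without garlic replicate 1 (adjusted p = 0.00232, with 0.0418%) or 2 (adjusted p = 0.00444, with 0.0325%).

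Synpo2 differed by −1.50 ± 0.41 (SE, adjusted p = 0.183) and by −0.83 without control replicate 1. Ntng1 differed by −0.90 ± 0.25 (adjusted p = 0.201) and by −0.60 without that library. Rgs16 differed by −0.96 ± 0.39 (adjusted p = 0.352) and Slc17a6 by −0.55 ± 0.24 (adjusted p = 0.371). The summed level of 6 genes of all neurons was also lower in each diabetes library, at 3171 to 3446 CPM against 3736 to 4145 CPM in control, although 2 of the 6 had a higher fitted level in diabetes (Tubb3 at 0.41 and Eno2 at 0.02, both overlapping; Tubb3 is outside the naming rule). The 19 hypothalamic genes moved in the opposite direction, with a summed level of 2439 to 4954 CPM in diabetes against 1541 to 2170 CPM in control and 15 of 19 above 0. The 5 blood genes were also higher in every diabetes library when summed, at 264 to 1753 CPM against 87.4 to 196 CPM. DESeq2 and limma-voom each called 4 of the 5, beside 4.66% of the genes DESeq2 gave an adjusted p and 2.83% of all genes called higher. The part of these gene groups in the differences of the markers was not tested. In bulk tissue fewer cells of a type and less RNA per cell cannot be told apart.

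Both TCF/LEF genes had wide errors. Tcf7l2 differed by −1.36 ± 0.66 (SE, adjusted p = 0.415), and by −1.44 ± 0.30 (adjusted p = 0.048) without curcumin replicate 2, whose absence also changed the scaling and the genes tested (25358). Lef1 differed by −0.42 ± 0.63 (adjusted p = 0.938), within the spread between libraries. With the number of detected genes as a covariate the differences were −0.77 for Prkcd, −1.09 for Synpo2 and −0.34 for Ntng1. Rgs16 was at 0.01, Slc17a6 at −0.02, Tcf7l2 at 1.56 ± 0.67 (adjusted p = 0.349) and Lef1 at 1.74 ± 0.80 (adjusted p = 0.377). The fitted sign of Tcf7l2, Lef1 and Rgs16 was thus not kept. Detected genes did not overlap between diabetes (20133 to 22515) and control (25766 to 33157). The covariate and the groups are therefore hard to separate, and no reversal is read from this fit.

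The 16 other thalamic genes were not used to pick the 7, but they too were listed with earlier results known and are a description. None passed the threshold in edgeR, and 15 of 16 had a lower fitted level in diabetes. At an unadjusted p under 0.05, 8 were lower, beside 7.48% of all genes. Without overlap between groups 9 were lower, beside 8.93%. DESeq2 called 4 of them lower, Plekhg1, Ptpn3, Rora and Zic1, with 0.52% of its genes. With limma-voom 4 were called lower, Adarb1, Plekhg1, Rora and Zic1, with 1.77% of all genes. The median log2 change of the list was −0.93, and −0.54 without control replicate 1. That library and curcumin replicate 2 both bear on these values, and with both left out the median was −0.56 with 0 of 16 past the threshold.

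Zic1, a zinc finger transcription factor, had the smallest p of the 16. Its levels were 99.1, 65.5 and 69.5 CPM in control and 25.3, 43.0, 23.0 and 33.4 CPM in diabetes, a log2 difference of −1.32 ± 0.31 (SE, adjusted p = 0.125). Without control replicate 1 it was at −1.12, and it reached an adjusted p of 0.0398 without curcumin replicate 2. Without garlic replicate 1 or 2 its adjusted p was 0.0151 or 0.0204, and that of Ptpn3 was 0.0432 without garlic replicate 1. With a single garlic library the low-count filter keeps more genes, 31107 or 30759 in place of 25562.

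The nuclear receptor gene Rora measured 87.1, 41.2 and 35.6 CPM in control and 25.3, 24.9, 27.4 and 26.8 CPM in diabetes. Its difference was −1.07 ± 0.30 (SE, adjusted p = 0.192) and −0.56 without control replicate 1. Ptpn3, a tyrosine phosphatase, was at −1.66 ± 0.45 (adjusted p = 0.183) and Plekhg1, an exchange factor for small GTPases, at −1.22 ± 0.35 (adjusted p = 0.206). The adenosine deaminase Adarb1 was at −0.78 ± 0.27 (adjusted p = 0.29). All of these were lower in every diabetes library than in any control library.

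The low genes of the list had the widest errors. Lhx9 was at −2.10 ± 0.96, Tnnt1, a troponin subunit, at −1.81 ± 1.23 and Shox2 at −3.27 ± 1.56, each without overlap between groups and with adjusted p of 0.39, 0.644 and 0.407. Gbx2 was at −2.48 ± 1.54, and diabetes replicate 4, at 3.67 CPM, lay within the control range. Amotl1, Cacna1g, Foxp2, Lhx2, Plcb4 and Ramp3 also overlapped between groups, with fitted values from −0.72 (Ramp3) to 0.27 (Lhx2).

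**Figure D3:**
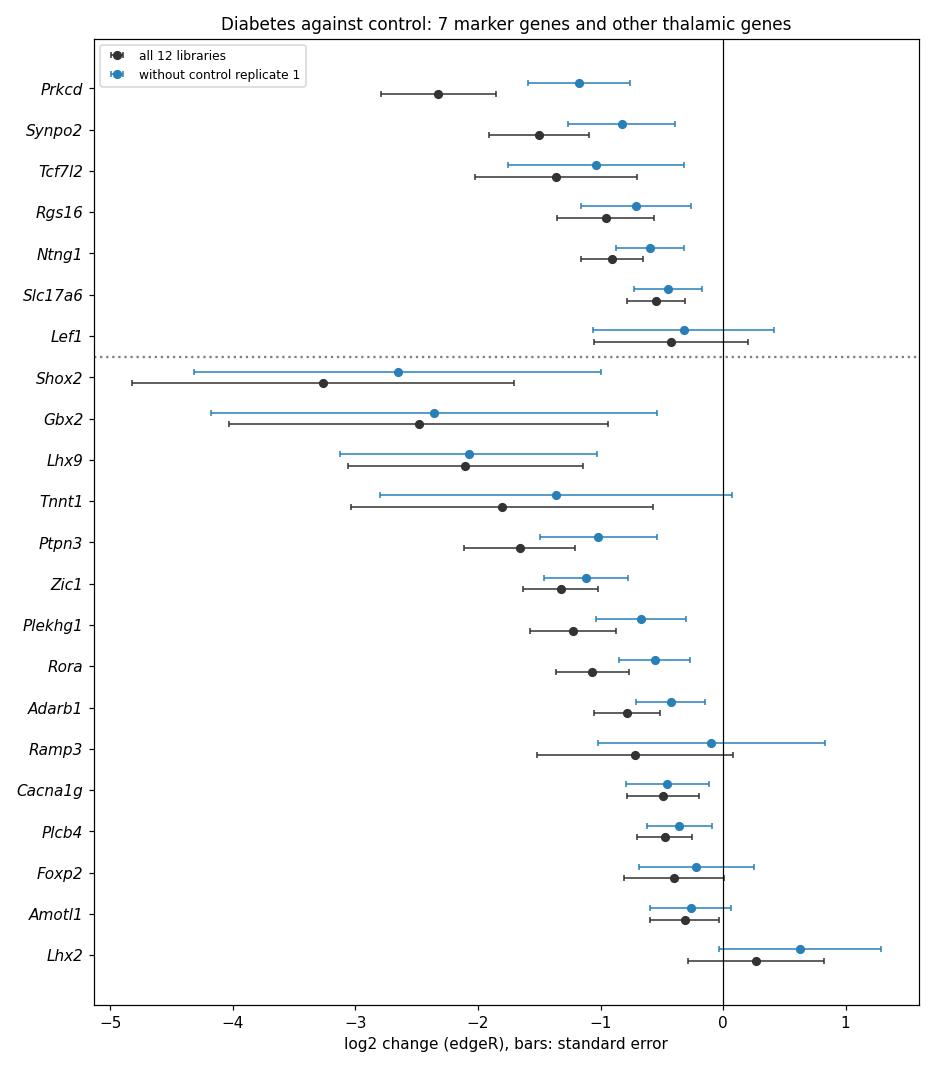
Log2 change from control to diabetes for the 7 marker genes (above the dotted line) and 15 of the other thalamic genes, with bars of 1 standard error, from all 12 libraries (black) and without control replicate 1 (blue). Prkcd moves from −2.32 to −1.18 without that library, whereas Lhx9 stays near −2.10 and Lhx2 is the single gene above 0.

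Curcumin was compared with untreated diabetes. In the curcumin libraries 6 of the 7 markers had a higher fitted level and 0 passed the threshold, as 0.09% of all genes did. Slc17a6 and Ntng1 were the 2 without overlap between groups, which 5.42% of all genes were in that direction. At an unadjusted p under 0.05, Tcf7l2 and Slc17a6 were higher, beside 10.5% of all genes. DESeq2 called 0 of the 7 and 1.71% of its genes higher, and limma-voom 0 of the 7 and 0.0313% of all genes. The diabetes libraries serve here again, so the difference from diabetes is not independent of the one above.

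Tcf7l2 was at 2.28 ± 0.67 (SE, adjusted p = 0.127) with all libraries and at −0.31 ± 0.35 (adjusted p = 0.627) without curcumin replicate 2. Lef1 likewise went from 0.85 ± 0.63 (adjusted p = 0.545) to −0.73 ± 0.59 (adjusted p = 0.469). A single library set the direction of both. Without garlic replicate 1 or 2, which again keeps more genes, Tcf7l2 had an adjusted p of 0.00787 or 0.0163 with curcumin replicate 2 included, beside 0.492% or 0.442% of all genes called higher. Shox2 and Lhx9 passed in the same 2 fits.

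The other markers depended less on it. Slc17a6 was at 0.72 ± 0.24 (SE, adjusted p = 0.158) and at 0.43 ± 0.21 (adjusted p = 0.207) without curcumin replicate 2. Ntng1 was at 0.45 ± 0.26 (adjusted p = 0.384) and at 0.43 without it. Prkcd was at 0.85 ± 0.46 (adjusted p = 0.367), Synpo2 at 0.38 ± 0.41 (adjusted p = 0.724) and Rgs16 at −0.10 ± 0.40 (adjusted p = 0.947), all with overlapping libraries.

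Of the 16 other thalamic genes, 0 passed the threshold in edgeR, 5 were higher and 1 lower at an unadjusted p under 0.05 (6.71% of all genes were lower), DESeq2 called 1 (Rora) and limma-voom 0. Rora and Adarb1 were the 2 higher without overlap, at 1.03 ± 0.30 (SE, adjusted p = 0.121) and 0.82 ± 0.27 (adjusted p = 0.156), and the list's median was 0.49. Without curcumin replicate 2 3 genes of the list were past the threshold, among them Ramp3 and Tnnt1, both lower, beside 2.97% of all genes higher and 4.82% lower in that fit. Ramp3, a partner of the calcitonin and adrenomedullin receptors, was at −4.09 (adjusted p = 0.0156), with 0.189 and 0.99 CPM in curcumin replicates 1 and 3.

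Tnnt1 and Shox2 had 0 counts in curcumin replicates 1 and 3. Set at a floor of 3 counts over both libraries and compared with the pooled diabetes libraries, Tnnt1 was at least 28.7-fold lower and Shox2 at least 14.2-fold lower. Shox2 also had 0 counts in diabetes replicates 1 and 2, so its bound rests on replicates 3 and 4 (38 and 41 counts). The edgeR fit without curcumin replicate 2 gave an adjusted p of 0.00396 for Tnnt1 and 0.0691 for Shox2. The list's median in that fit was 0.46, whether these genes stood at their fitted values or at the bounds. The floor covers counting error only.

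Garlic was compared with untreated diabetes with 2 libraries, which limits the precision. All 7 markers had fitted values at or above 0, from 0.00 (Synpo2) to 0.78 (Prkcd), 0 passed the threshold, as did 0% of all genes, and 0 were without overlap, beside 13.1% of all genes higher in every library. None had an unadjusted p under 0.05, as 6.9% of all genes had with a higher level. DESeq2 and limma-voom called 0 of the 7 and, of all genes, 0.37% and 0.274% higher. Prkcd was at 0.78 ± 0.52 (SE, adjusted p = 0.703), Tcf7l2 at 0.43 ± 0.74 (adjusted p = 1) and Slc17a6 at 0.29 ± 0.27 (adjusted p = 0.89). Each of the 7 fitted values lay within 2 standard errors of 0. With the number of detected genes as a covariate all 7 were below 0, from −4.28 ± 1.04 (Tcf7l2, adjusted p = 0.27) to −0.53 ± 0.51 (Slc17a6, adjusted p = 0.833). The garlic libraries, at 33125 and 34719 detected genes, lay above all diabetes libraries (20133 to 22515). Covariate and group are thus again hard to separate, and no reversal is read from this fit.

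The 16 other thalamic genes had 14 fitted values above 0 in garlic and a median of 0.48, which became −0.65 with the covariate, under the same limit. Without overlap there were 5, Foxp2, Lhx9, Rora and Zic1 among them, beside 13.1% of all genes. Again 0 passed in edgeR, DESeq2 and limma-voom, and 1 was higher at an unadjusted p under 0.05, beside 6.9% of all genes. That gene was Zic1, at 60.2 and 67.5 CPM in the garlic libraries, at the lower end of the control values, and at 1.04 ± 0.34 against diabetes (SE, adjusted p = 0.32). The diabetes libraries are shared between these comparisons.

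**Figure D4:**
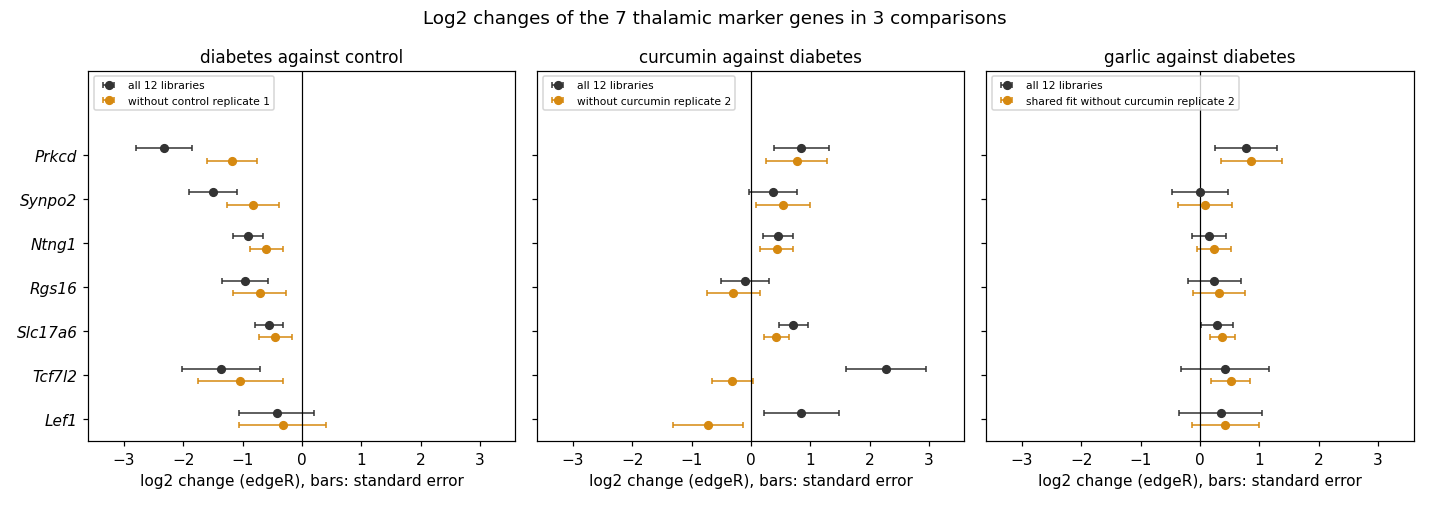
Log2 changes of the 7 marker genes in 3 comparisons, with bars of 1 standard error, from all 12 libraries (black) and with 1 library left out (orange, named in each panel). Tcf7l2 and Lef1 cross 0 in the curcumin panel when curcumin replicate 2 is left out (2.28 to −0.31 and 0.85 to −0.73), and in the garlic panel that library changes only the shared spread and scaling.

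The Wnt pathway, which acts through Tcf7l2 and Lef1, was followed with 19 genes. None passed the threshold in edgeR, DESeq2 or limma-voom in the 3 comparisons, and at an unadjusted p under 0.05 there were 2 lower in diabetes than in control, 3 higher in curcumin and 1 higher in garlic, beside 7.48%, 10.5% and 6.9% of all genes in those directions. The most abundant were Ctnnb1, which encodes beta-catenin, and Gsk3b, the kinase that marks it for destruction. Ctnnb1 stood at 361, 338 and 206 CPM in control, 299, 220.2, 209 and 239 CPM in diabetes, and 383, 334 and 314 CPM in curcumin. The control and diabetes ranges overlapped, with a log2 difference of −0.32 ± 0.25 (SE, adjusted p = 0.729). Gsk3b differed by −0.53 ± 0.24 (adjusted p = 0.395) and also overlapped. In curcumin replicate 2, where Tcf7l2 was 10.2 times the median, Ctnnb1 and Gsk3b (161 CPM) stayed within the range of the other libraries. Of the 19 genes, 3 were highest in that library, as were 8.85% of all genes, and 16 were highest elsewhere. The 3 were Nkd1 (26.7 CPM, at most 18.2 elsewhere), Notum (4.86, at most 3.50) and Sp5 (4.81, at most 2.96), all outside the naming rule. Any link to Tcf7l2 was not tested.

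Family members and partners of the markers, 18 genes, likewise held 0 past the threshold in edgeR in the 3 comparisons. Between diabetes and control 14 of 18 had a lower fitted level, 2 of them at an unadjusted p under 0.05, beside 7.48% of all genes. DESeq2 and limma-voom called 1 each, beside 5.18% of DESeq2's genes and 4.6% of all genes in either direction. Prkce, a related protein kinase C, was at −0.33 ± 0.22 (SE, adjusted p = 0.637) with overlapping libraries, while Prkcd was at −2.32. Slc32a1, the vesicular transporter of inhibitory neurons, was at −0.07 ± 0.23 (adjusted p = 0.987), beside −0.55 for Slc17a6 of excitatory neurons. Neither pair's difference was tested.

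Genes of neighbouring structures gave no call in edgeR either. The 7 habenular genes summed to 38.1 to 44.3 CPM in control and 44.5 to 61.0 CPM in diabetes, and Tac2 made up most of each sum. Tac2 was at 0.50 ± 0.52 (SE, adjusted p = 0.856) and Chrna3 at −1.12 ± 0.74 (adjusted p = 0.622). The direction of the 7 habenular genes in diabetes was mixed, 4 above and 3 below 0, whereas 15 of 16 thalamic genes were below. Among 8 genes of the reticular thalamus and zona incerta, the inhibitory neighbours of the relay nuclei, 5 were below 0 and 3 above. Pvalb was at 0.76 ± 0.86 (adjusted p = 0.879) and reached 281.5 CPM in curcumin replicate 2 against at most 47.0 CPM elsewhere, and Ecel1 was at 0.04 ± 0.44 (adjusted p = 0.996). All 6 tested genes of cortex and hippocampus were below 0 in diabetes, 3 at an unadjusted p under 0.05, beside 7.48% of all genes. These 3 included Cux2 at −0.49 ± 0.23 (adjusted p = 0.39) and Prox1 at −0.84 ± 0.32 (adjusted p = 0.328). Both were lower in every library, as were 8.93% of all genes.

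Across all 18 gene lists, which hold 164 genes of which 161 were tested, 0 passed in edgeR in any of the 3 comparisons. At an unadjusted p under 0.05 there were 37 for diabetes against control, 46 for curcumin against diabetes and 29 for garlic against diabetes, beside 12.3%, 17.2% and 10.9% of all genes in either direction. DESeq2 called 13, 13 and 2 of them in the same order, beside 5.18%, 4.66% and 4.7% of its genes, and limma-voom 14, 1 and 6, beside 4.6%, 0.481% and 1.68% of all genes.

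Genes whose libraries ran most like the markers were ranked by Pearson's r with a score. For each library the score averages the 7 markers' log2 CPM, after centring every marker across the 12 libraries. The markers were not scaled by their SD, so those that vary more between libraries weigh more in the score. The 8 closest with a mean of at least 1 CPM were Dynll2 (r = 0.864), Nrip3 (0.849), Rora (0.849), Shox2 (0.825), Fhdc1 (0.821), Nsmf (0.82), Lrrtm1 (0.814) and Ptpn3 (0.805). Of these, 3 are on the list of other thalamic genes. Without control replicate 1 and curcumin replicate 2, the libraries farthest out, r was 0.831 for Dynll2, 0.774 for Shox2 and 0.725 for Lrrtm1 but 0.304 for Nsmf and 0.465 for Rora, so the likeness of Nsmf and Rora rests largely on those libraries. Dynll2, a dynein light chain, measured 894, 704 and 838 CPM in control and 553, 658, 668 and 717 CPM in diabetes. These r values were picked as the highest and share libraries, depth and groups, so they are a description.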

How the data were processed

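Poly-A RNA of 12 mouse tissue samples was sequenced from a stranded library as paired reads, per the labels' protocols. The authors deposited 1 table of raw read counts per gene. Per the submitters' processing notes FastQC, featureCounts and GRCm39 were used. Which aligner, annotation and strand setting served is not given in the sources used, so overlapping and antisense genes are uncertain. Symbols and exon lengths came from GENCODE on GRCm38, matched by ID (65.7% of IDs, 97.8% of counts), and promoters from RefSeq on GRCm38.p6. No coordinates of the counts are used.

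Groups followed the sample titles. Genes were filtered by filterByExpr (minimum count 10), scaled by TMM and fitted with all 12 libraries by edgeR 4.0.16 (glmQLFit, glmQLFTest, R 4.3.3), with Benjamini-Hochberg adjustment over 25562 genes and a threshold of 0.05. The common dispersion was 0.653. The script was tested on simulated data. DESeq2 1.42.0, limma 3.58.1, other scalings, filters, covariates and left-out libraries were alternatives. The replicate numbers do not pair libraries.

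The 7 genes, the gene lists and the naming rule were chosen with earlier results of these data known. The rule named the 7 genes, the 16 other thalamic genes, the 2 most abundant genes of each further list and the 8 genes most like the markers. Some genes it names are not reported here. Genes outside it are marked as such where they appear.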

Additional observations from a re-analysis of the deposited data

Results flagged for a closer look

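In the diabetes group, the only one with enough libraries for the check, the highest or lowest library was separated from the other 3 by an unusually large share of the range for 7 of 58 named genes; chance gives about 1 in 20. None of the 7 markers was among them. In diabetes replicate 4 the thalamic gene Gbx2 was at 3.67 CPM against 0 to 0.087 CPM in the other 3 libraries. The same library held the pituitary hormones Gh at 732 CPM and Prl at 97.3 CPM, against 0 in the others. It also held the haemoglobin genes Hba-a2 at 503 CPM and Hbb-bs at 528 CPM, against at most 148 and 136 CPM. The habenular gene Tac2 was at 58.6 CPM in diabetes replicate 3 against 36.9 to 39.8 CPM. Nrip3, one of the genes most like the markers, was at 62.9 CPM in diabetes replicate 1 against 50.6 to 52.4 CPM.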

How the results depend on the processing

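Of 660 alternative values for 58 results, 605 kept their side of the threshold or stayed within the margin set and 55 moved. For diabetes against control, the number of the 7 markers past the threshold went from 0 to 3 with no low-count filter, 3 with DESeq2, 1 with limma-voom, 2 with only the compared groups fitted and 2 with curcumin replicate 2 out of the shared fit. These settings called 0.217%, 0.52%, 1.77%, 0.277% and 0.0434% of all genes lower. For the 16 other thalamic genes the same settings gave 6, 4, 4, 1 and 1 in place of 0. Their median of −0.93 became −1.35 with limma-voom, which moved the median over all genes from −0.07 to −0.32. It became −0.23 with the detected-gene covariate, −0.56 without both control replicate 1 and curcumin replicate 2, and −1.15 to −0.54 with each library left out in turn.

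For curcumin against diabetes, 1 marker (Tcf7l2) and 6 other thalamic genes passed with no low-count filter, beside 0.95% of all genes higher and 1.3% lower. DESeq2 and the covariate called 1 other thalamic gene each, leaving out diabetes replicate 4 and curcumin replicate 2 called 2, leaving out control replicate 1 and curcumin replicate 2 called 3, and single left-out libraries 0 to 3. Without curcumin replicate 2 alone, 2.97% of all genes were higher and 4.82% lower. For garlic against diabetes, 2 other thalamic genes passed with no low-count filter (0.157% of all genes were higher), and the covariate turned their median from 0.48 to −0.65. Leaving out control replicate 1 with curcumin replicate 2, and curcumin replicate 2 from the fit of the other comparisons, were chosen after seeing the data.

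The replicate numbers did not pair libraries: same-numbered libraries correlated at −0.131 to 0.119 in their deviations. With the replicate number as a block, in which diabetes replicate 4 adds nothing, 0 markers and 0 other thalamic genes passed in each comparison, and the medians of the latter were −1.07, 0.41 and 0.38. Gbx2, Shox2, Lhx9 and Tnnt1 had 0 counts in 1 or more libraries, which did not follow the library total. Diabetes replicate 1, the deepest, had 0 counts of Shox2 and diabetes replicate 3, the shallowest, 38. All these zeros lay in diabetes replicates 1 and 2 and curcumin replicates 1 and 3, with 20474 to 22515 genes detected at equal depth. Diabetes replicates 3 and 4 (20133 and 20699) held none, nor did any library with 25766 or more. A link to detected genes was not tested.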
